A study of Mus musculus with 28 samples.

Results

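The genes described here are Kcnc1, Kcnc2 and Kcnc4, which code for the voltage-gated potassium channel subunits Kv3.1, Kv3.2 and Kv3.4. They were taken by gene name from the count tables of sorted brain nuclei, where they are 3 of 41549 named genes. Kv3 channels open only when a neuron is strongly depolarised and close quickly on repolarisation, which keeps action potentials short and lets a cell fire at high rates. In the cortex Kv3.1 and Kv3.2 are known from fast-spiking interneurons that make parvalbumin, and Kv3.2 also from interneurons that make somatostatin. Kv3.4 inactivates quickly and is known from axons and presynaptic terminals.

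Motor cortex of 7 mice (animals 17 to 23) was used; the labels give no age, strain or genotype. Every mouse received a pair of adeno-associated virus vectors for the nuclease Cas9. The left hemisphere got AAV-Cas9-miR-124-empty (empty) and the right hemisphere AAV-Cas9-miR-124-g4 (g4), so vector and hemisphere cannot be told apart. Nuclei of each hemisphere were then sorted by an antibody against the HA tag. The stained nuclei are called HA-positive here and are labelled as carrying Cas9, and the unstained ones are called HA-negative. Each vector thus has a group of HA-positive and a group of HA-negative nuclei, which makes 4 groups of 7 libraries. All 4 groups, the HA-negative ones included, came from tissue injected with a Cas9 vector, and there was no uninjected tissue. The labels do not name the promoter that drives Cas9, and mature miR-124 was not analysed here.

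Library totals ranged from 248612 to 902944 counts, and 8687 to 13668 genes were detected per library. Ribosomal RNA, the mitochondrial kind included, made up 17.0 to 40.4% of these totals, so fewer counts were left for other genes. The empty HA-positive libraries of animals 17, 21 and 22 and the g4 HA-positive library of animal 18 had fewer than 10000 detected genes. Animal 19's library of g4 HA-positive nuclei had Xist at 618 CPM (counts scaled to the library's size) beside Y-linked transcripts at 46.0 CPM. It was the 1 library of animals 17 to 20 with Xist above 0. The other libraries of animal 19 had Y-linked transcripts at 142 to 170 CPM. In animals 21 to 23 Xist was at 456 CPM or above and Y-linked transcripts at 3.67 CPM or below. Why animal 19's library held both was not tested. Results are also given without it and without the libraries of low gene number where that matters. The 10 excitatory neuron markers, headed by Slc17a7 and Camk2a, summed to 646 to 1155 CPM in empty HA-positive libraries (median 1029), 858 to 1318 in g4 HA-positive (median 1168), 1026 to 1507 in empty HA-negative (median 1277) and 971 to 1545 in g4 HA-negative ones (median 1271). The 6 astrocyte markers summed to 579 to 1238 CPM in empty HA-positive (median 716) and 1041 to 1380 CPM in empty HA-negative libraries (median 1278). With g4 they summed to 866 to 2156 CPM (median 1287) and 1062 to 1554 CPM (median 1276), so the fractions overlapped with either vector. The sorted fractions differed more widely in the markers that follow. Of 10 interneuron markers, 9 were in the tables, and their sum was 2315 to 3933 CPM in empty HA-positive libraries and 798 to 1071 in empty HA-negative ones. With g4 it was 1403 to 3117 and 712 to 1040 CPM. The 4 microglia markers summed to 2.84 to 38.1 CPM in empty HA-positive libraries, where Cx3cr1 and P2ry12 were at 0, and to 174 to 394 CPM in empty HA-negative ones. With g4 they summed to 2.75 to 261 and 268 to 460 CPM. The 6 oligodendrocyte markers summed to 38.2 to 99.4 CPM in empty HA-positive and 924 to 1567 CPM in empty HA-negative libraries, and with g4 to 90.0 to 1165 and 1165 to 2076 CPM. The g4 HA-positive maxima of both lists, 261 and 1165 CPM, were those of animal 19, and the other 6 libraries of that group were at 26.1 CPM or below for microglia and 176 CPM or below for oligodendrocytes.

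Kcnc1 (ENSMUSG00000058975) lies on chromosome 7 at 46396497 to 46438704 on the plus strand of GRCm38, Kcnc2 (ENSMUSG00000035681) on chromosome 10 at 112271121 to 112467024 on the plus strand, and Kcnc4 (ENSMUSG00000027895) on chromosome 3 at 107438303 to 107459552 on the minus strand. No other gene of the annotation overlaps any of them. Because the vectors are named for miR-124, the longest annotated 3′ UTR of each gene was searched for matches to the seed of this microRNA (GTGCCTT or TGCCTTA or, where both join, GTGCCTTA). Kcnc1 (UTR of 5043 bases) and Kcnc2 (3953 bases) each held 1 match of the form GTGCCTT, at chr7:46428711-46428717 and chr10:112463837-112463843, and Kcnc4 (1118 bases) held 0. Of 21037 protein-coding genes with an annotated 3′ UTR, 19.7% held at least 1 match; their median UTR length was 960 bases, shorter than that of any of the 3 genes, and the share was not taken for UTRs of like length. The matches are printed 5′ to 3′ on the gene's strand with 10 flanking bases on each side, and capitals mark the match.
Kcnc1: tttaacatgcGTGCCTTcaggctgtgt
Kcnc2: gcagggagggGTGCCTTtctccttgct

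The promoters are shown because Kcnc1 and Kcnc2 moved together between the sorted fractions. The windows are the 250 bases before a RefSeq start site on GRCm38.p6, chr7:46396218-46396467 for Kcnc1 and chr10:112269767-112270016 for the most upstream of the 4 listed starts of Kcnc2, both on the plus strand. This Kcnc2 start, at 112270017, lies before the gene start given above, 112271121, which is the second of the listed starts. Capitals mark matches, on either strand, to the GC box GGGCGG and the CRE half-site TGACG.
Kcnc1: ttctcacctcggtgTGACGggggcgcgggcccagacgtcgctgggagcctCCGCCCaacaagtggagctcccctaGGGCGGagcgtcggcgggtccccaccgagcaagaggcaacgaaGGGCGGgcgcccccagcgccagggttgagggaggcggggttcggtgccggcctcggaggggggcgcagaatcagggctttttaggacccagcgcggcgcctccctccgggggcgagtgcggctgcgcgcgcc
Kcnc2: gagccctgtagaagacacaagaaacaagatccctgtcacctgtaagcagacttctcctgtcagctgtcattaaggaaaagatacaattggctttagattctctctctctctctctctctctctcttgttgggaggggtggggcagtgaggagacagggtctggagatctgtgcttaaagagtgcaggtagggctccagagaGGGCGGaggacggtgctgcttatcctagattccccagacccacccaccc

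The Kcnc1 window was 74.4% GC with 30 CpG dinucleotides, 3 GC boxes and 1 CRE half-site. Its GC content was above that of 95.4% of 32851 promoter windows of the same length, whose median was 52.4%. The Kcnc2 window printed above was 52.4% GC with 2 CpGs, 1 GC box and 0 CRE half-sites. The windows of its other starts were 52.8 to 58.8% GC with 4 or 5 CpGs and held neither motif. The Kcnc4 window (chr3:107458899-107459148, minus strand) was 68.0% GC with 12 CpGs, 1 GC box and 1 CRE half-site. None of these windows held the TATA box TATAAA. Over all windows 32.7% held a GC box, 17.8% a CRE half-site and 12.4% a TATA box. The Kcnc1 window was thus rich in GC and the Kcnc2 windows were near the median.

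Kcnc1 and Kcnc2 were about 3-fold higher in HA-positive than in HA-negative nuclei with either vector, and no difference between the fractions passed the test for Kcnc4. No difference between the vectors passed the test for any of them. All 3 passed the filter on low counts in each of the 5 comparisons. The plot of levels per library shows the split between the fractions.

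**Figure D1:**
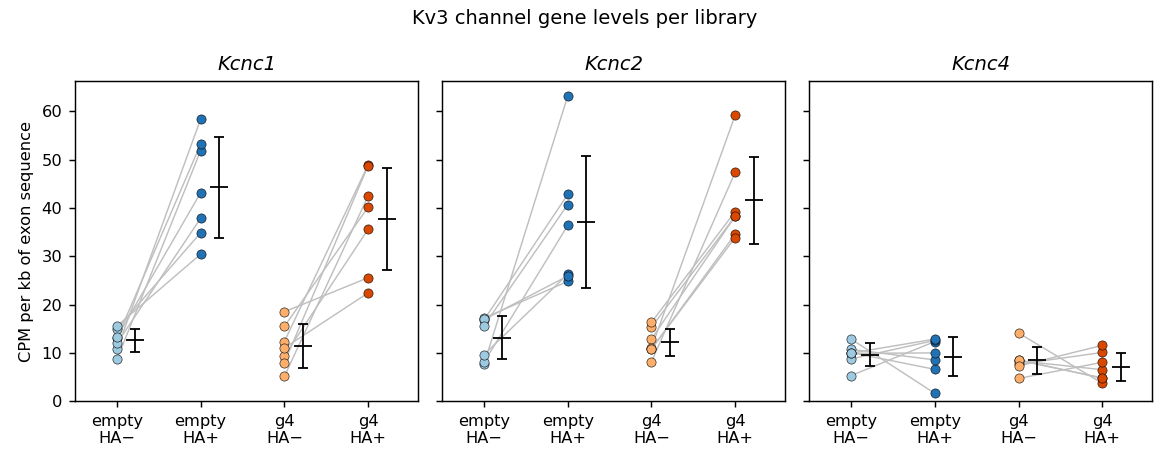
Levels of Kcnc1, Kcnc2 and Kcnc4 in CPM per kb of exon sequence (vertical axis, starting at 0) in the 4 groups (horizontal axis; HA− and HA+ are the sorted fractions). Points are libraries, grey lines join the fractions of 1 animal and vector, and bars are mean ± SD (n = 7). Kcnc1 and Kcnc2 are higher in every HA+ library than in any HA− library of the same vector, and the Kcnc4 groups overlap.

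The first question was how HA-positive nuclei differed from HA-negative nuclei of the same hemisphere with the empty vector. Kcnc1 ranged from 288 to 552 CPM in HA-positive libraries (median 408) and from 82.3 to 147 CPM in HA-negative ones (median 123). The groups did not overlap, and the lowest HA-positive library, of animal 20, was from the same animal as the highest HA-negative one. The means were 418.9 ± 99.1 and 119.4 ± 22.6 CPM (SD, n = 7). The log2 fold change was 1.82 ± 0.17 (standard error, SE; adjusted p 7.47e-09, edgeR quasi-likelihood test), which is 3.52-fold, and the level was higher in HA-positive nuclei in 7 of 7 animals.

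Kcnc2 ranged from 177 to 451 CPM in HA-positive libraries of the empty vector (median 260) and from 54.9 to 123 CPM in HA-negative ones (median 112). These groups did not overlap either, and animal 19 gave the highest value of the HA-positive group and the lowest of the HA-negative group. The means were 265 ± 97.5 and 94.0 ± 31.7 CPM (SD, n = 7). The log2 fold change was 1.50 ± 0.23 (adjusted p 3.35e-05, edgeR), 2.82-fold, with 7 of 7 animals higher.

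Kcnc4 ranged from 6.11 to 47.3 CPM in HA-positive libraries of the empty vector (median 36.8) and from 19.6 to 47.3 CPM in HA-negative ones (median 36.7). The groups overlapped throughout, and the library at 6.11 CPM, of animal 18, had 3 counts. The means were 34.0 ± 15.0 and 35.5 ± 8.40 CPM (SD, n = 7). The log2 fold change was -0.05 ± 0.37 (95% interval -0.82 to 0.71; adjusted p 0.961, edgeR), and the level was higher in HA-positive nuclei in 4 of 7 animals. Without animal 18 it was 0.21 and without animal 17 it was 0.01. Kcnc4 had 3 to 29 counts per library over the whole set, and the fit does not tell a change within that interval from 0. Of the 3 genes, 2 were called higher with the empty vector, where 7.01% of 5538 genes tested were called, 3.5% in each direction. In bulk samples, fewer cells of a type and less RNA per cell cannot be told apart, and this holds for every level given here.

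The same fractions were compared with the g4 vector, in other libraries of the same animals. Kcnc1 ranged from 212 to 463 CPM in HA-positive libraries (median 380) and from 48.9 to 175 CPM in HA-negative ones (median 105). The groups did not overlap. The means were 356.7 ± 99.3 and 108.2 ± 42.8 CPM (SD, n = 7), and the log2 fold change was 1.74 ± 0.24 (adjusted p 0.000142, edgeR), 3.34-fold, with 7 of 7 animals higher. The difference within an animal ranged from 0.47 to 3.04 on the log2 scale, a wider spread than with the empty vector, where it was 0.97 to 2.58. The difference in spread was not tested.

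Kcnc2 ranged from 242 to 423 CPM in g4 HA-positive libraries (median 273) and from 58.4 to 117 CPM in g4 HA-negative ones (median 79.0). The groups did not overlap, and the lowest HA-positive library was above the highest HA-negative one by more than the whole range of the HA-negative group. The means were 297 ± 63.8 and 87.3 ± 20.3 CPM (SD, n = 7). The log2 fold change was 1.75 ± 0.16 (adjusted p 2.3e-09, edgeR), 3.36-fold, with 7 of 7 animals higher, and by p-value Kcnc2 was number 2 of 6264 genes tested.

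Kcnc4 ranged from 13.7 to 42.5 CPM in g4 HA-positive libraries (median 24.1) and from 17.4 to 51.9 CPM in g4 HA-negative ones (median 30.9). The groups overlapped, with 3 of 7 animals higher in HA-positive nuclei. The means were 26.1 ± 10.8 and 31.1 ± 10.4 CPM (SD, n = 7), and the log2 fold change was -0.24 ± 0.34 (95% interval -0.93 to 0.45; adjusted p 0.801, edgeR). Of the 3 genes, 2 were again called higher, where 6.4% of 6264 genes tested were called, 3.32% higher and 3.08% lower.

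Across 13 alternative settings with the empty vector and 14 with g4, Kcnc1 and Kcnc2 kept their call each time. These settings included the animal as a block, the libraries of low gene number left out and each animal left out in turn. Their log2 fold changes ranged from 1.65 to 1.94 for Kcnc1 and from 1.22 to 1.64 for Kcnc2 with the empty vector. With g4 they ranged from 1.59 to 1.94 for Kcnc1 and from 1.62 to 1.84 for Kcnc2. Interneuron markers moved with these genes in the sums given above, and their part in the difference was not tested.

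Levels of different genes were set side by side per kb of exon sequence. The union of annotated exons is 9458 bases for Kcnc1, 7138 for Kcnc2 and 3667 for Kcnc4. Such values compare genes only if counts come from exons and grow with exon length. How reads were counted is not given in the sources used here, so differences between genes in these values are uncertain. In empty HA-positive libraries the levels were 44.3 ± 10.5 CPM per kb for Kcnc1, 37.2 ± 13.7 for Kcnc2 and 9.26 ± 4.08 for Kcnc4 (SD, n = 7). In empty HA-negative libraries they were 12.6 ± 2.39, 13.2 ± 4.44 and 9.69 ± 2.29 CPM per kb. The ranges of the 3 genes overlapped in HA-negative nuclei, while the highest Kcnc4 value in HA-positive nuclei, 12.9 CPM per kb, lay below the lowest Kcnc1 (30.5) and Kcnc2 (24.8) values. The g4 libraries had the same arrangement, with 37.7 ± 10.5, 41.6 ± 8.93 and 7.11 ± 2.95 CPM per kb in HA-positive nuclei and 11.4 ± 4.53, 12.2 ± 2.85 and 8.49 ± 2.83 in HA-negative nuclei.

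In order of level, Kcnc1 was highest in HA-positive nuclei, empty before g4, and then in HA-negative nuclei, again empty before g4. Kcnc2 had the same order except that g4 stood before empty in HA-positive nuclei. For both, the groups of 1 fraction were neighbours whose ranges overlapped, and the step from HA-positive to HA-negative nuclei was the break in the order. For Kcnc4 the empty groups (HA-negative, then HA-positive) stood above the g4 groups (in the same order), with every neighbour within the spread of the next.

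**Figure D2:**
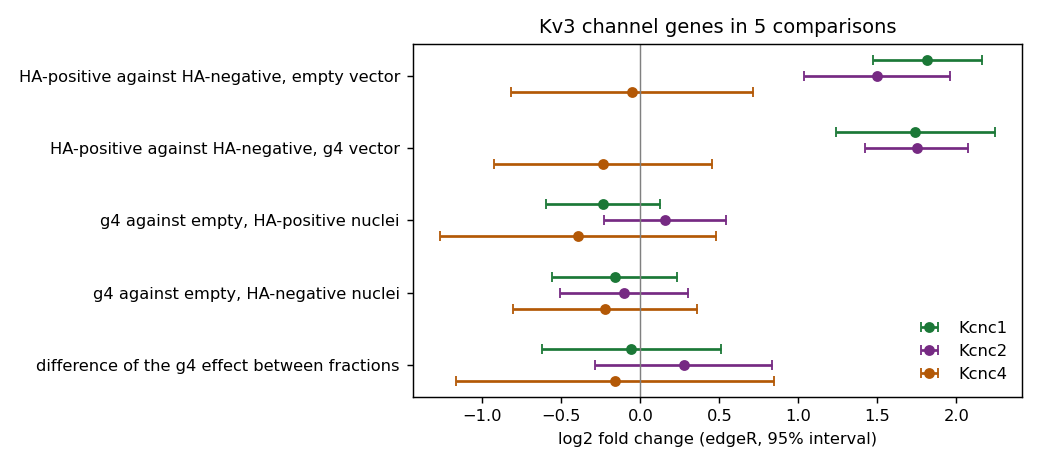
Log2 fold changes of Kcnc1, Kcnc2 and Kcnc4 (horizontal axis) in the 5 comparisons (vertical axis), with the 95% interval of the edgeR fit, 7 libraries per group. The intervals of Kcnc1 and Kcnc2 lie above 1 in both comparisons of the sorted fractions, and every interval of the vector comparisons and of Kcnc4 includes 0.

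Whether the Kv3 genes differed from each other between the fractions was tested with the ratio of 2 genes' counts within a library, which does not depend on library size. Ratios are log2 values with a pseudocount of 0.5, compared by exact two-sided permutation tests over 3432 splits, with p-values adjusted over the 24 tests of 6 ratios in 4 comparisons. Kcnc1 to Kcnc4 ranged from 2.90 to 5.54 in empty HA-positive libraries (median 3.41) and from 1.43 to 2.02 in empty HA-negative ones (median 1.77). The groups did not overlap, and the mean ratio was 4.02-fold higher in HA-positive nuclei, in 7 of 7 animals (exact permutation p 0.000583, the smallest this design can give; adjusted p 0.00233). With g4 it ranged from 2.79 to 4.64 against 0.77 to 2.53 and was 4.12-fold higher, again without overlap and with the same p-values in the permutation test.

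Kcnc2 to Kcnc4 moved the same way. It ranged from 1.95 to 4.64 in empty HA-positive and from 0.54 to 1.70 in empty HA-negative libraries, a 3.27-fold higher mean ratio. With g4 it ranged from 2.85 to 4.49 against 0.17 to 2.11, 4.13-fold higher. Neither pair of groups overlapped, 7 of 7 animals were higher each time, and both exact permutation tests gave p 0.000583 (adjusted p 0.00233). The fraction difference of Kcnc4 was therefore smaller than that of Kcnc1 and of Kcnc2 by more than the spread between libraries.

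No difference between the fractions passed the test for Kcnc1 to Kcnc2. The ratio was 0.70 ± 0.47 in empty HA-positive and 0.40 ± 0.55 in empty HA-negative libraries (SD, n = 7), a difference of 0.30 (exact permutation p 0.294; adjusted p 0.641). With g4 the ratio was 0.24 ± 0.53 against 0.24 ± 0.81 (exact permutation p 0.999). Libraries varied widely in this ratio, from -0.90 to 1.56 within g4 HA-negative nuclei alone.

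Each gene was also set against Gad1, which codes for an enzyme of GABA synthesis and marks inhibitory neurons. Gad1 was at 725 ± 239 CPM in empty HA-positive and 203 ± 53.3 CPM in empty HA-negative libraries (SD, n = 7). Kcnc1 to Gad1 was -0.77 ± 0.40 in empty HA-positive and -0.74 ± 0.50 in empty HA-negative libraries (SD, n = 7), a difference of -0.03 (exact permutation p 0.913). With g4 the difference was 0.10 (exact permutation p 0.792). Kcnc2 to Gad1 differed by -0.33 with the empty vector (exact permutation p 0.224, adjusted p 0.597) and by 0.10 with g4 (exact permutation p 0.675). Neither gene thus left the Gad1 level by more than the spread between libraries, with animals on both sides each time.

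Kcnc4 to Gad1 fell from -2.48 ± 0.52 in empty HA-negative to -4.51 ± 1.20 in empty HA-positive libraries (SD, n = 7). The mean ratio in HA-positive nuclei was 0.244 of that in HA-negative nuclei, lower in 7 of 7 animals without overlap (exact permutation p 0.000583, adjusted p 0.00233). With g4 it was 0.260 of the HA-negative ratio, with the same p-values. When the animal was kept as a block by flipping signs over 7 animals, the exact permutation p of each of these 6 differences that involve Kcnc4 was 0.0156, the smallest that design can give, and the adjusted p was 0.0625. The ratios rest on the 3 to 29 Kcnc4 counts per library.

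**Figure D3:**
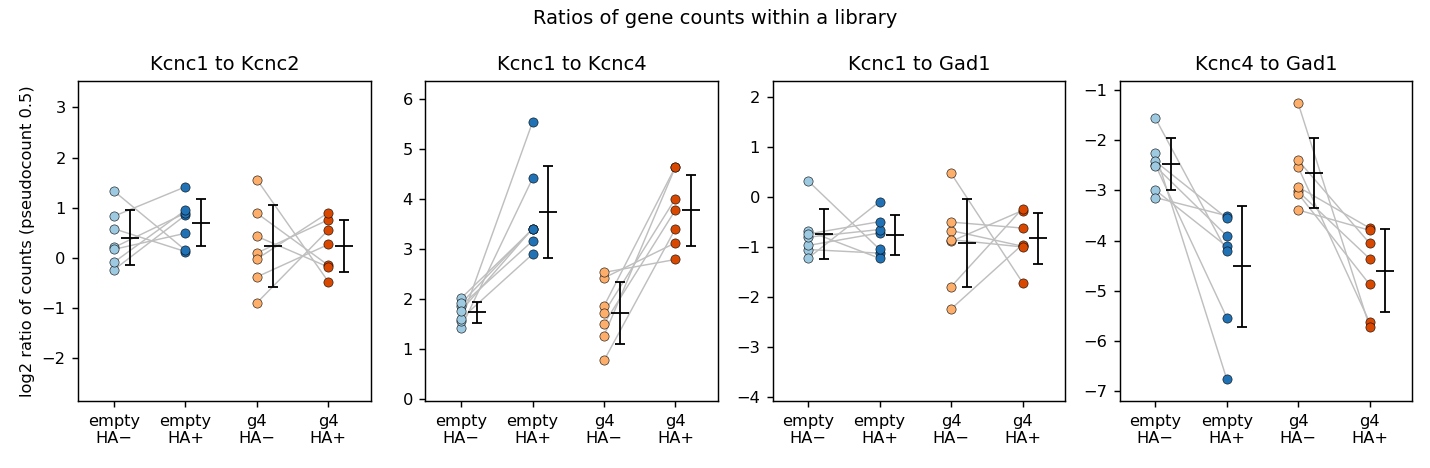
Log2 ratio of the counts of 2 genes within a library (vertical axis, each panel spans the same number of log2 units) in the 4 groups (horizontal axis). Points are libraries, grey lines join the fractions of 1 animal and vector, and bars are mean ± SD (n = 7). Kcnc1 to Kcnc4 is higher and Kcnc4 to Gad1 lower in HA+ libraries without overlap, and Kcnc1 to Kcnc2 and Kcnc1 to Gad1 overlap between all groups.

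The study's vector comparison asked what the g4 vector changed relative to the empty vector. In HA-positive nuclei 0 of the 3 Kv3 genes were called, where 0.0599% of 5011 genes tested were called (3 genes; 0.02% rose, 0.0399% fell, and 335 were below an unadjusted p of 0.05). Kcnc1 was at 356.7 ± 99.3 CPM with g4 against 418.9 ± 99.1 CPM, a log2 fold change of -0.24 ± 0.18 (95% interval -0.60 to 0.12; adjusted p 0.849, edgeR), lower in 5 of 7 animals. Kcnc2 was at 297 ± 63.8 against 265 ± 97.5 CPM, 0.16 ± 0.19 (95% interval -0.23 to 0.54; adjusted p 0.929, edgeR), higher in 4 of 7 animals. Kcnc4 was at 26.1 ± 10.8 against 34.0 ± 15.0 CPM, -0.40 ± 0.43 (95% interval -1.27 to 0.48; adjusted p 0.918, edgeR), lower in 5 of 7 animals. The groups overlapped for each gene. The interval was widest for Kcnc4, the gene with the fewest counts.

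Without the 4 libraries of low gene number, the values for Kcnc1 and Kcnc2 lost their direction, at 0.0036 and -0.01, and Kcnc2 was at -0.02 without animal 22. Kcnc4 was at -0.07 without those 4 libraries, and it ranged from -0.53 to -0.22 with 1 animal left out at a time. The astrocyte marker sum moved with the vector in HA-positive nuclei, from 579 to 1238 CPM (median 716) with the empty vector to 866 to 2156 CPM (median 1287) with g4. The oligodendrocyte sum, 38.2 to 99.4 CPM with the empty vector, was 90.0 to 1165 CPM with g4, where the library of animal 19 was the highest. Their part in the Kv3 values was not tested.

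In HA-negative nuclei 0 of the 3 Kv3 genes were called, where 0% of 6262 genes tested were called by edgeR (236 below an unadjusted p of 0.05; 1 gene by DESeq2 and 0 by limma voom). Kcnc1 was at 108.2 ± 42.8 CPM with g4 against 119.4 ± 22.6 CPM, -0.16 ± 0.20 on the log2 scale (95% interval -0.56 to 0.23). Kcnc2 was at 87.3 ± 20.3 against 94.0 ± 31.7 CPM, -0.10 ± 0.20 (95% interval -0.51 to 0.30). Kcnc4 was at 31.1 ± 10.4 against 35.5 ± 8.40 CPM, -0.22 ± 0.29 (95% interval -0.81 to 0.36). The adjusted p was 0.999 for each by edgeR, and 4, 3 and 2 of 7 animals were higher with g4 for Kcnc1, Kcnc2 and Kcnc4. Kcnc1 was at 0.01 without animal 20 and Kcnc2 at 0.03 without animal 18.

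The difference of the g4 effect between the fractions was taken from a model fitted to the 28 libraries together. It was -0.06 ± 0.28 for Kcnc1, 0.27 ± 0.28 for Kcnc2 and -0.16 ± 0.50 for Kcnc4 on the log2 scale. Of the 3 genes, 0 were called, with adjusted p-values of 0.998, 0.996 and 0.998 by edgeR, and 0% of 7197 genes tested were called (359 below an unadjusted p of 0.05; 0 by DESeq2 and 0 by limma voom). The direction differed between animals for each gene. None of the within-library ratios passed the test between the vectors. The lowest p was for Kcnc1 to Kcnc2 in HA-positive nuclei, which was 0.24 ± 0.53 with g4 against 0.70 ± 0.47 with empty (SD, n = 7; exact permutation p 0.112, adjusted p 0.386), lower in 5 of 7 animals.

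Kv3 channels are 1 of several subfamilies of voltage-gated potassium channels. A list of 11 alpha subunits of the Kv1, Kv2 and Kv4 subfamilies was read in the same fits, and 8 had enough counts in each comparison of the fractions. With the empty vector 1 of 8 rose and 1 fell in HA-positive nuclei, where 3.5% of 5538 genes tested rose and 3.5% fell. The median log2 fold change was 0.09, against 0.01 over all genes tested. With g4 1 of 8 rose and 1 fell, where 3.32% of 6264 genes tested rose and 3.08% fell. The median was 0.05, against 0.01 over all genes tested. Without the libraries of low gene number the counts were the same with both vectors. With animal 19's g4 HA-positive library left out, 1 rose and 2 fell with g4.

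Kcna2, which codes for Kv1.2, a low-threshold channel of axons, rose in both comparisons, by 0.77 ± 0.16 with the empty vector (adjusted p 0.00178) and 0.51 ± 0.12 with g4 (adjusted p 0.00911, edgeR). Kcna4, which codes for the inactivating channel Kv1.4, fell by 1.98 ± 0.47 on the log2 scale with the empty vector (adjusted p 0.00644) and fell by 1.48 ± 0.39 with g4 (adjusted p 0.0172, edgeR). Kcna4 was at 15.4 ± 14.7 CPM in empty HA-positive and 64.0 ± 27.5 CPM in empty HA-negative libraries (SD, n = 7). The Kcna4 call was lost with limma voom with both vectors (adjusted p 0.0598 and 0.0713), and with g4 also without animal 20, 21 or 22 (0.0791, 0.075 and 0.0879, edgeR). The Kcna2 call with g4 was lost without animal 22 (adjusted p 0.0564, edgeR). Of 7 subunits tested between the vectors in HA-positive nuclei and 8 in HA-negative nuclei, 0 were called. Over all genes tested 0.0599% and 0% were called there.

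A list of 14 genes known from fast-spiking cells was chosen beside the Kv3 genes, and 12 were tested between the fractions. With the empty vector 9 of 12 rose and 1 fell, and the median log2 fold change was 1.63, where 3.5% of all genes tested rose, 3.5% fell and their median was 0.01. With g4 9 of 12 rose and 0 fell, with a median of 1.29, where 3.32% of all genes tested rose, 3.08% fell and their median was 0.01. Without the libraries of low gene number 10 rose and 1 fell with the empty vector, and 9 rose and 0 fell with g4. With 1 animal left out at a time 7 to 10 rose with g4 (7 without animal 20). The values of Kcnc1 and Kcnc2 lay within the range of those that rose, as the plot of the lists shows. Markers of other interneurons rose too. With the empty vector 6 of 7 general interneuron markers tested rose (median 1.54), and 2 of 2 somatostatin markers (2.17). Of the Vip and Lamp5 interneuron markers 1 of 4 rose (0.51). With g4 these counts were 7 of 8 (1.12), 3 of 3 (2.10) and 1 of 5 (0.29). The rise was thus not particular to the fast-spiking list. Pvalb, the calcium buffer parvalbumin, rose by 2.82 ± 0.43 with the empty vector and 2.30 ± 0.36 with g4 (adjusted p 6.1e-05 and 5.12e-05, edgeR), from 15.5 ± 12.2 to 109 ± 43.1 CPM with the empty vector (SD, n = 7). Ank1, a scaffold of the membrane skeleton, rose by 2.48 ± 0.25 and 1.71 ± 0.29, Nefh, the heavy neurofilament subunit, by 2.41 ± 0.36 and 1.71 ± 0.38, and Syt2, a fast calcium sensor of transmitter release, by 2.40 ± 0.31 and 2.03 ± 0.27. Scn4b, a sodium channel beta subunit, was the 1 gene that fell with the empty vector, by 2.22 on the log2 scale (SE 0.36). It is named because it was the exception, after its value was seen. With g4 it was at 22.9 ± 24.3 CPM in HA-positive and 116 ± 68.9 CPM in HA-negative libraries (SD, n = 7), a log2 fold change of -2.20 (SE 0.63; adjusted p 0.0653, edgeR). It passed the test, with a lower level in HA-positive nuclei, with the animal as a block (adjusted p 0.000119), by DESeq2 (0.018), with animal 19's g4 HA-positive library left out (0.0117) and without animal 18 or 19, so that 1 of the 12 then fell with g4. Scn4b is also a gene of striatal projection neurons, whose 6 markers summed to 11.3 to 117 CPM in empty HA-positive and 300 to 876 CPM in empty HA-negative libraries; their part was not tested.

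**Figure D4:**
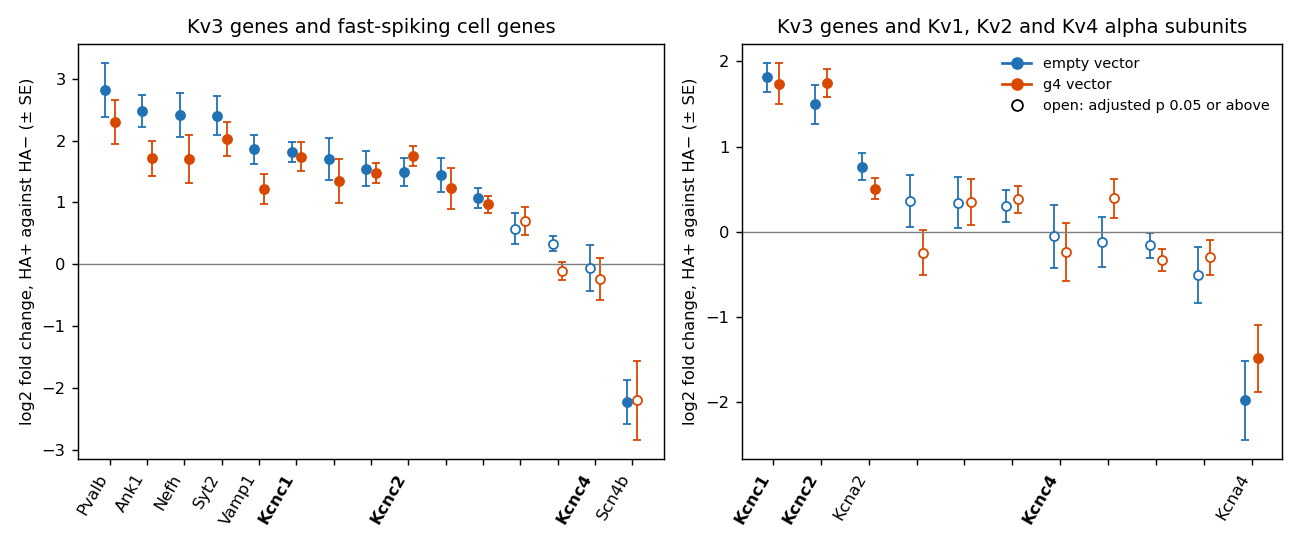
Log2 fold change of HA+ against HA− nuclei (vertical axis, ± SE) with the empty and the g4 vector for the Kv3 genes (bold) among genes of fast-spiking cells (left) and among Kv1, Kv2 and Kv4 alpha subunits (right), ordered by the value with the empty vector; genes not named in the text carry no label. Filled points passed the edgeR test. Kcnc1 and Kcnc2 lie among the fast-spiking genes that rose and above every Kv1, Kv2 and Kv4 subunit shown, and Kcnc4 lies near 0 in both panels.

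Between the vectors, 1 of 11 fast-spiking genes tested was called in HA-positive nuclei, where 0.0599% of 5011 genes tested were called and 0.0399% fell. Vamp1, a vesicle protein of presynaptic terminals, was at 122 ± 31.2 CPM with g4 against 263 ± 81.3 CPM with empty (SD, n = 7), and fell by 1.11 on the log2 scale (SE 0.20; adjusted p 0.0103, edgeR). The call was lost with the animal as a block (adjusted p 0.0835), without the libraries of low gene number (0.0575) and without animal 18, 19, 22 or 23 (0.0706 to 0.145). By DESeq2 2 of 11 genes of the list fell, where 6 of 5011 genes tested fell. With no filter on low counts 2 of 14 fell, where 14 of 17517 did. The median over the 11 was -0.43, against -0.01 over all genes tested, and 0 of 11 had a value above 0. Kcnc1, Kcnc2 and Kcnc4, at -0.24, 0.16 and -0.40, were above that median, Kcnc4 by little. The parvalbumin marker sum was 165 to 321 CPM in g4 and 235 to 737 CPM in empty HA-positive libraries, and the number of detected genes had a median of 11973 and 10475; their part was not tested. In HA-negative nuclei 0 of 10 were called, where 0% of 6262 genes tested were called.

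A list of 12 reported partners and regulators of Kv3 channels held Ank3, a scaffold of the axon initial segment, the translation regulator Fmr1, subunits of casein kinase 2, protein kinase C isoforms, the accessory subunit Kcne3, Hax1 and the transcription factor Creb1. Of 10 tested between the fractions, 0 were called with either vector. Over all genes tested 7.01% were called with the empty vector and 6.4% with g4, so 0 of 10 is near the share of all genes. The medians of the list were 0.05 and -0.08, against 0.01 and 0.01 over all genes tested. Prkca, which codes for a protein kinase C isoform, was closest with g4, at 0.46 ± 0.15 (SE; adjusted p 0.0552, edgeR), and was called with animal 19's g4 HA-positive library left out (0.50, adjusted p 0.0394) and without animal 23 (0.54, adjusted p 0.0499). Of 10 tested between the vectors in each fraction, 0 were called, where 0.0599% of all genes tested were called in HA-positive and 0% in HA-negative nuclei.

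The genes whose pattern over the 28 libraries was most like each Kv3 gene were found by Pearson's r of log2 CPM (prior count 2) among 7196 other genes. Among the 5 most like Kcnc1 were Btbd11 (r 0.912), the neuropeptide gene Sst (0.901) and Atp1b1 (0.878), a beta subunit of the sodium pump. Among the 5 most like Kcnc2 were Pam (0.896), an enzyme that amidates peptides, the neuregulin receptor gene Erbb4 (0.895) and Gad1 (0.879). These values combine the sorted fractions, and the libraries share animals, so they are descriptions. Over the 14 HA-positive libraries alone Btbd11 was at 0.604, Sst at 0.372 and Atp1b1 at 0.405 with Kcnc1. Pam was then at 0.518, Erbb4 at 0.549 and Gad1 at 0.260 with Kcnc2. Over the 14 HA-negative libraries the values with Kcnc1 were 0.558, 0.341 and 0.437, and those with Kcnc2 were 0.716, 0.153 and 0.398, in the same order.

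Kcnc1 and Kcnc2 had r 0.809 with each other over 28 libraries, but 0.116 over the 14 HA-positive and -0.126 over the 14 HA-negative ones. The value over all libraries thus rested on the step between the fractions, and within a fraction the correlation was near 0. Kcnc4 had r -0.05 with Kcnc1 and -0.08 with Kcnc2 over 28 libraries. Over the 14 HA-positive libraries these values were 0.248 and 0.249, and over the 14 HA-negative ones 0.512 and 0.232. The values over all libraries thus do not describe Kcnc4 within a fraction. The genes most like Kcnc4 were Zdhhc8 (r 0.662), Rraga (0.650), Srpr (0.644), Sgk3 (0.635) and Vti1a (0.620). Kcnc4 had few counts per library, and correlations of this size in sparse counts are no finding.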

How the data were processed

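RNA of sorted nuclei was counted in 28 libraries, 7 per group, and group and animal were read from the sample titles. Gene tables of raw counts were deposited by the authors, per the labels; the build is GRCm38, per the submitters' processing notes. Aligner, counter and strand setting: not given in the sources used here. Empty cells were read as 0, and the 1 entry without a gene name held 0% of the counts. For 3 animals the title number differs from the column name, and the sample descriptions tied them.

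Genes were tested with edgeR 4.0.16 (R 4.3.3; filterByExpr, TMM, robust quasi-likelihood, two-sided) over the whole table, with Benjamini-Hochberg adjustment and calls under 0.05. CPM use TMM factors over all 28 libraries. DESeq2 1.42.0, limma 3.58.1 voom, RLE factors, no filter, an animal block and left-out libraries were alternatives. Same-numbered libraries come from the same animal, per the titles; their mean correlation of deviations was 0.009 to 0.064 per animal. The fit was tested on simulated data. Positions and 3′ UTRs are from GENCODE M21, promoters from RefSeq on GRCm38.p6. The 3 genes were found in both, though not every start site is the same in both.

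Some genes that the naming rule or a list holds are not reported here, and 1 was taken out of the channel list. The members and lists were chosen with earlier results of these data known. The genes named were the 3 Kv3 genes, up to 4 called genes per list and comparison with the largest change, the 5 most alike per Kv3 gene, Gad1, and exceptions said to be such. Intervals are at 95%.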

Additional observations from a re-analysis of the deposited data

Results flagged for a closer look

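Each level and ratio was checked for a library far from its group, in 36 groups of 7 libraries; 3 values, from 2 libraries, were found, and chance finds about 1 in 20 groups. In g4 HA-negative nuclei the library of animal 18 was the highest in Kcnc4, at 51.9 CPM (16 counts), and its gap to the next library was large for the range of the group. The same library had the lowest log2 ratio of Kcnc2 to Kcnc4, at 0.165, from 18 and 16 counts. In empty HA-negative nuclei the library of animal 20 had the highest log2 ratio of Kcnc1 to Gad1, at 0.312, from 56 and 45 counts.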

How the results depend on the processing

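The calls of Kcnc1 and Kcnc2 between the fractions kept direction and significance under each alternative run, and the animal as a replicate block changed no call of a Kv3 gene by edgeR. For Kcnc4 in the vector comparison of HA-positive nuclei DESeq2 gave no adjusted p and is left out. With the animal as a block by sign flips, the 6 ratios that had passed gave adjusted p 0.0625: Kcnc1 to Kcnc4 2.01 (empty) and 2.04 (g4), Kcnc2 to Kcnc4 1.71 and 2.04, Kcnc4 to Gad1 -2.03 and -1.94. Each unadjusted p was the smallest that design can give, so the adjusted value was set by the number of animals and tests. Other values changed sign, not all of them near 0 in the main run. None had a call, and the cause was not tested. Without the HA-positive libraries under 10000 genes, g4 against empty in HA-positive nuclei gave 0.0036 for Kcnc1 and -0.01 for Kcnc2, and log2 ratios of -0.15 for Kcnc1 to Kcnc4, -0.09 for Kcnc2 to Kcnc4, 0.19 for Kcnc1 to Gad1 and 0.34 for Kcnc4 to Gad1. The difference of the g4 effect was then 0.16 for Kcnc1 and 0.15 for Kcnc4, and 0.13 and 0.04 with limma voom. Kcnc1 to Kcnc2 between the g4 fractions was 0.12 without those libraries and 0.01 with a pseudocount of 2.

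Leaving out 1 animal at a time, log2 fold changes with g4 ranged from -0.02 to 0.34 for Kcnc2 in HA-positive nuclei, and from -0.27 to 0.01 for Kcnc1 and -0.28 to 0.03 for Kcnc2 in HA-negative nuclei. The difference of the g4 effect ranged from -0.35 to 0.03 for Kcnc1, -0.02 to 0.62 for Kcnc2 and -0.35 to 0.02 for Kcnc4, and Kcnc4 between the empty fractions from -0.24 to 0.21. Log2 ratios between the vectors in HA-positive nuclei ranged from -0.18 to 0.28 (Kcnc1 to Kcnc4), -0.14 to 0.01 (Kcnc1 to Gad1) and -0.27 to 0.13 (Kcnc4 to Gad1). In HA-negative nuclei they ranged from -0.41 to 0.18 (Kcnc1 to Kcnc2), -0.15 to 0.17 (Kcnc1 to Kcnc4), -0.02 to 0.37 (Kcnc2 to Kcnc4), -0.41 to 0.20 (Kcnc1 to Gad1), -0.21 to 0.08 (Kcnc2 to Gad1) and -0.37 to 0.04 (Kcnc4 to Gad1). Between the fractions Kcnc1 to Gad1 ranged from -0.22 to 0.19 (empty) and -0.14 to 0.48 (g4), Kcnc2 to Gad1 from -0.03 to 0.28 (g4) and Kcnc1 to Kcnc2 from -0.24 to 0.34 (g4).

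The number of genes called between the vectors in HA-positive nuclei, 3, was 1 with the block, 11 by DESeq2, 28 with no filter, 5 without the library of animal 19, 0 without those of low gene number, and 1 to 4 without 1 animal (1 without animal 18). In HA-negative nuclei DESeq2 called 1, and for the difference of the g4 effect the fit with no filter called 3. Between the empty fractions 661 genes were called with no filter and 251 to 371 without 1 animal (251 without animal 19). Between the g4 fractions 218 to 422 were called (218 without animal 20, 224 without 21 and 241 without 22). Kcnc4 counts limit what can be said of that gene.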
